A study of Prunus avium with 18 samples.

Results

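The BG genes BG_1A (PAV07g0328831), BG_3E (PAV07g0328941), BG_3C (PAV07g0328961) and BG_3B (PAV07g0328991), annotated as β-1,3-glucanases, carry neighbouring identifiers on chromosome 7 of the sweet cherry (Prunus avium L.) 'Regina' genome, and were followed in flower buds from October to March. They are 4 of the 48,133 genes counted, chosen by name and by their place in the identifier order, with their profile over the dates already known. All 4 passed the filter on low counts, as did 26,248 genes in all. Because the same libraries had shown this profile, the levels and fold changes of the 4 genes are given as a description with no p. Whether they pass the call rule of the fit over all genes is stated beside the share of all genes that do, and nothing is read from it. Values with a p belong to other genes.

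β-1,3-glucanases cut callose, the β-1,3-glucan that plants lay down around plasmodesmata, the channels between neighbouring cells, and on the sieve plates of the phloem. More callose narrows the channel and its removal widens it, so that the balance of callose synthases and β-1,3-glucanases sets how freely cells exchange signals and nutrients. In buds of hybrid aspen, members of the large GH17 family of glucan hydrolases have been linked to the reopening of plasmodesmata in winter, and other plant β-1,3-glucanases act in defence against fungi.

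The buds came from the late flowering cultivar 'Fertard', untreated and sampled in the orchard on 6 dates of 1 winter: October 17 and December 8, 2017, and January 3, January 15, February 12 and March 12, 2018. The study named the expression peaks along these dates for dormancy onset, early, mid and late endodormancy, when buds do not grow even in warmth, and ecodormancy, although its forcing test put dormancy release of that winter after the last of these dates. Each date had 3 libraries of stranded mRNA, from buds of 3 different trees, which makes 18 libraries of 1 cultivar in 1 season. The labels of the December libraries carry another date, December 17, 2012, and the December 8 of the series' design text was used. Library totals ran from 10,095,600 to 21,023,379 reads counted in genes, of which the top 10 genes held 2.41% to 7.97%. Levels are given as CPM values (reads of a gene per 1000000 reads of the library after TMM scaling), and since CPM takes no account of gene length, each gene is compared with itself between dates and never by level with another gene. In whole buds, a lower level in each cell and fewer cells of the kind that express the gene cannot be told apart.

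The depth behind the 4 genes differed widely. Over the 18 libraries, BG_3C had 239,008 reads and BG_3E 7070, whereas BG_1A had 965 and BG_3B 970. Values of the last pair, and December values of BG_3E, therefore rest on few reads.

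**Figure D1:**
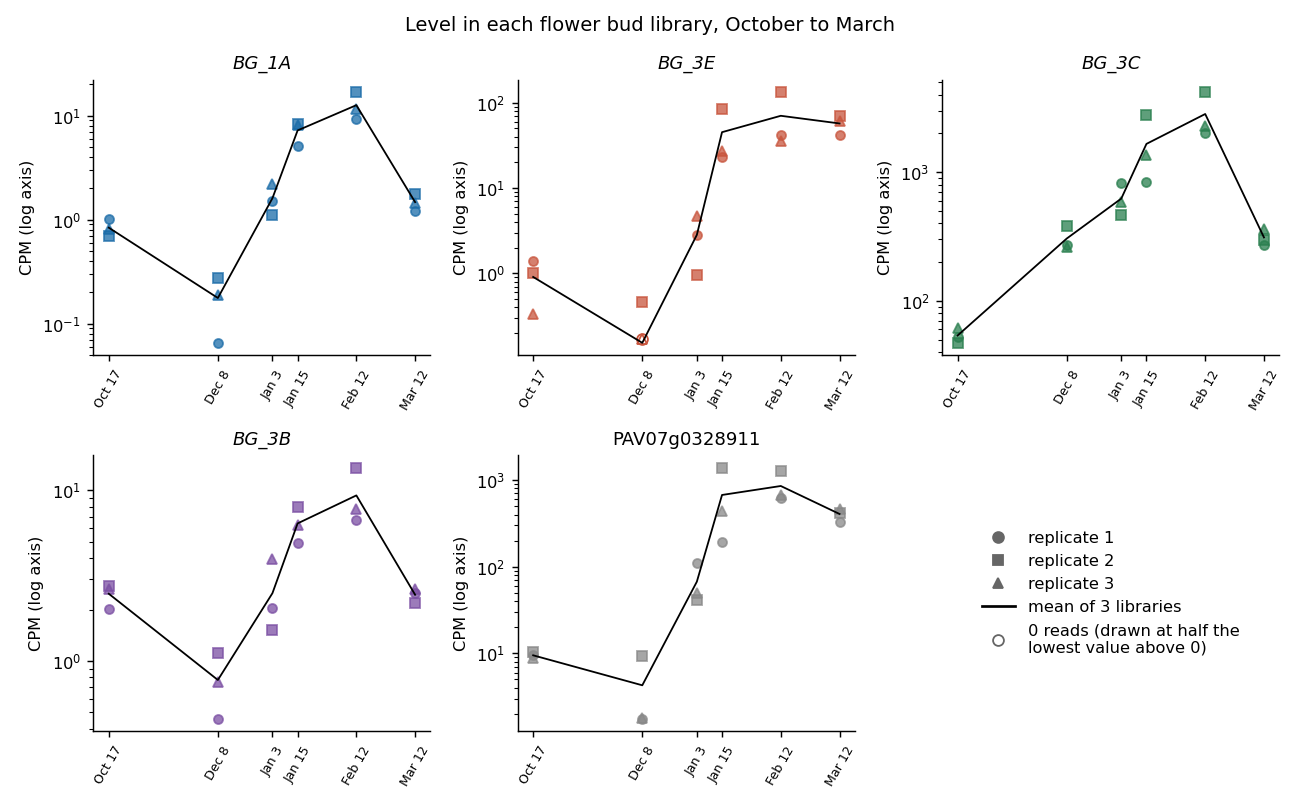
Level (CPM, log axis) of each block gene and of the neighbour PAV07g0328911 in every library against the sampling date, spaced by days after October 17, with 1 symbol per replicate and a line through the means of 3 libraries. All 5 genes had their highest mean on February 12, BG_3C alone rose from October 17 to December 8, and BG_3E and PAV07g0328911 stayed high on March 12. The open symbols are the December libraries in which BG_3E had 0 reads.

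BG_3C climbed through the whole of autumn and winter. Its level was 52.8, 47.2 and 61.4 CPM in the 3 October libraries and already 272, 382 and 260 CPM on December 8, so that the dates did not overlap. It reached 822, 460 and 585 CPM on January 3, then 844, 2763 and 1359 CPM on January 15. On February 12 the 3 libraries held 1995, 4180 and 2300 CPM, and on March 12 they were back at 272, 299 and 361 CPM. The mean thus rose from 53.8 ± 7.15 CPM (SD, n = 3) in October to 2825 ± 1184 CPM (SD, n = 3) in February, 52.5-fold on the fitted scale, and fell 9.09-fold by March. Only the neighbouring pairs December and March, and January 15 and February 12, overlapped when the 6 dates were ordered by level.

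BG_3E rose steeply in January and was still high in March. It had 15, 16 and 5 reads in the October libraries and 0, 5 and 0 reads in December. Its level was 2.80, 0.953 and 4.72 CPM on January 3 and 22.9, 85.1 and 27.4 CPM on January 15, with no overlap between these dates. February 12 gave 42.4, 133 and 35.2 CPM and March 12 gave 41.5, 69.5 and 60.3 CPM. The February and March libraries overlapped fully, and the means were 70.2 ± 54.6 CPM and 57.1 ± 14.3 CPM (SD, n = 3 each). March was 64.8-fold above October on the fitted scale, with a log2 fold change of 6.02 (SE 0.76).

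BG_1A dipped in December before it climbed. The 3 libraries held 1.01, 0.690 and 0.812 CPM in October and 0.0654, 0.276 and 0.188 CPM in December, the latter from 1, 3 and 2 reads. Levels rose to 1.53, 1.11 and 2.18 CPM on January 3, to 5.12, 8.40 and 8.14 CPM on January 15 and to 9.38, 16.9 and 11.6 CPM on February 12. The March libraries, at 1.22, 1.75 and 1.46 CPM, fell within the range of January 3. BG_1A was the only one of the 4 genes whose January 15 and February 12 libraries did not overlap.

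BG_3B followed the same course over a narrower range. October libraries held 2.02, 2.76 and 2.64 CPM and December libraries 0.458, 1.10 and 0.753 CPM. January 3 gave 2.04, 1.51 and 3.93 CPM, January 15 gave 4.93, 8.02 and 6.25 CPM, and February 12 gave 6.72, 13.6 and 7.76 CPM. On March 12 the libraries returned to 2.51, 2.19 and 2.62 CPM, overlapping those of October, and the log2 fold change of March against October was -0.04 (SE 0.36).

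Between October 17 and December 8 the 4 genes parted. BG_3C rose 5.66-fold, with a log2 fold change of 2.50 (SE 0.36), whereas BG_1A fell by 2.26 (SE 0.58) and BG_3B fell by 1.74 (SE 0.43) on the log2 scale. BG_3E had 36 reads in October and 5 in December, and its change of -2.59 (SE 1.93) did not pass the rule used throughout for a call, an adjusted p below 0.05 in the edgeR fit over all genes together with a log2 fold change beyond 1 in size. With the DESeq2 test it did, at -2.63. Among all tested genes 15.1% were called in this comparison, 3.49% as higher and 11.6% as lower in December, and the libraries of the 2 dates did not overlap in 55.9%. Since the genes were picked with this contrast in view, their calls are set beside these shares without reading anything from them.

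From December 8 to January 3, and again from January 3 to January 15, all 4 genes rose and all 4 passed the rule, beside 10.4% and 4.4% of all genes called in either direction and 6.34% and 2.91% called higher. The libraries of neighbouring dates did not overlap for any of the 4 genes in either step, as was so for 48.9% and 38.7% of all genes. The first step was 3.21 (SE 0.52) for BG_1A, 4.26 (SE 1.52) for BG_3E, 1.03 (SE 0.34) for BG_3C and 1.71 (SE 0.43) for BG_3B on the log2 scale. The December levels of BG_1A and BG_3E are too low for a precise fold. Summed over libraries, BG_1A was 9.72-fold higher on January 3 than on December 8 with an exact 95% interval of 4.22 to 27.5, and BG_3E was 20.4-fold higher with an interval of 8.46 to 63.9, intervals that cover counting error only. The step to January 15 was 2.17 (SE 0.29) for BG_1A, 4.03 (SE 0.64) for BG_3E, 1.41 (SE 0.34) for BG_3C and 1.39 (SE 0.32) for BG_3B. The first call of BG_3C sits at the threshold, and its log2 fold change was 0.97 to 0.99 under 5 alternative settings and 0.78 without replicate 1 of January 3. The first call of BG_3E was lost without any 1 of 5 libraries of the 2 dates.

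From January 15 to February 12 the means went up by 1.44-fold to 1.74-fold, and none of the 4 genes passed the rule, beside 11% of all genes. Libraries did not overlap for BG_1A alone, and for 47% of all genes. Log2 fold changes were 0.80 (SE 0.24) for BG_1A, 0.62 (SE 0.49) for BG_3E, 0.77 (SE 0.33) for BG_3C and 0.53 (SE 0.29) for BG_3B. With single libraries left out, the value of BG_3E ran from -0.23, without replicate 2 of February 12, to 1.48, without replicate 2 of January 15, and that of BG_3C from 0.38 to 1.36 without the same libraries. Both genes passed the rule without replicate 2 of January 15. With both libraries left out, a choice made after the values had been seen, the changes were 0.63 for BG_3E and 0.96 for BG_3C. The preceding January step of BG_3C shrank to 0.82 and lost its call without replicate 2 of January 15.

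From December 8 to February 12 as a whole, all 4 genes passed the rule as higher, beside 17.7% of all genes called, that is 12.5% as higher and 5.27% as lower. Their libraries did not overlap, nor did those of 52.5% of all genes. BG_3C rose 9.28-fold and BG_3B 12.3-fold. BG_1A went from 6 reads to 458, a 74.5-fold ratio with an exact 95% interval of 34 to 204, and BG_3E from 5 reads to 2507, a ratio of 489 with an interval of 209 to 1508. These intervals cover counting error only and leave out the spread between trees. The 5 December reads of BG_3E all came from replicate 2.

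**Figure D2:**
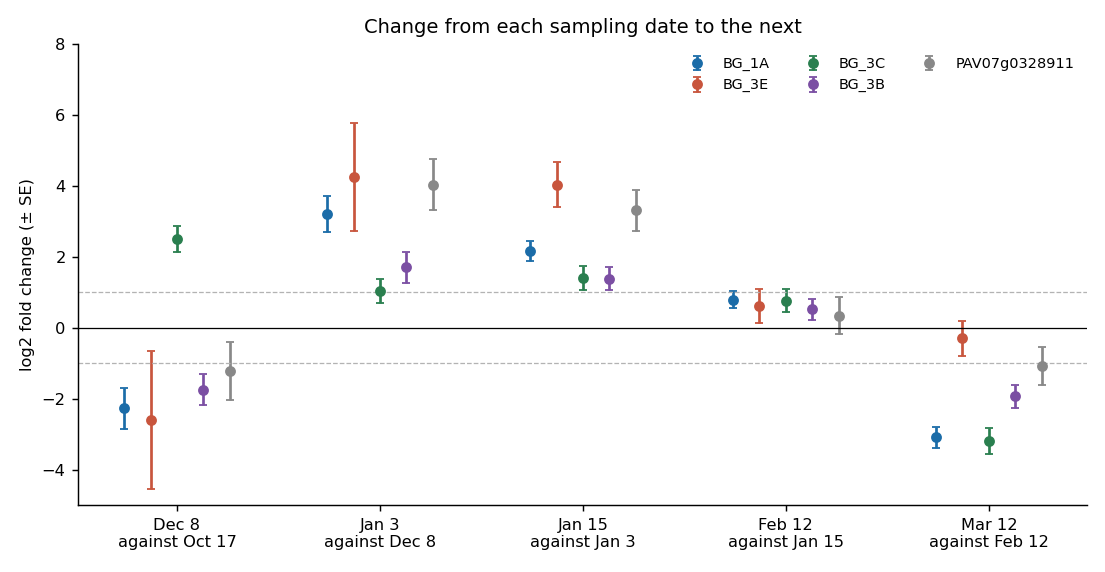
Log2 fold change with its standard error for each of the 5 steps between consecutive dates, for the 4 block genes and the neighbour PAV07g0328911. Dashed lines mark the fold threshold of 1 and -1. BG_3C is the point at 2.50 in the first step, where the others lie below 0, and BG_3E is the point at -0.30 in the last step, where BG_1A, BG_3C and BG_3B lie between -3.18 and -1.92.

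From February 12 to March 12 the genes parted a second time. BG_3C fell by 3.18 (SE 0.36), BG_1A fell by 3.09 (SE 0.29) and BG_3B fell by 1.92 (SE 0.33) on the log2 scale, and in each the 3 March libraries lay below the 3 February libraries, while 59.4% of all genes had no overlap between these dates. BG_3E had a log2 fold change of -0.30 (SE 0.49) with overlapping libraries. In this comparison 24.4% of all genes were called, 14.7% as higher and 9.66% as lower, and 5.09% were both higher in February than in December and lower in March than in February, as BG_1A, BG_3C and BG_3B were. Without replicate 2 of January 15 and replicate 2 of February 12, which were left out together after the values had been seen, the changes were -2.82, -2.79 and -1.56 for BG_1A, BG_3C and BG_3B, and that of BG_3E was 0.55. Its sign in this step is therefore not settled.

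Compared with October, March levels were called higher for BG_3E and for BG_3C, the latter 5.78-fold, beside 20.9% of all genes called and 13.2% called higher. The log2 fold change of BG_1A was 0.83 (SE 0.38), which did not pass the rule.

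Reads of one block gene per 1000 reads of another, in which gene length cancels when dates are compared, showed how the mixture of transcripts shifted. BG_3E had 16.1 reads per 1000 of BG_3C in October, 0.452 in December and 4.33 by January 3. It had 28.3 by January 15 and 24.6 by February 12, but 184 in March. In March the 3 libraries gave 152 to 232, above the highest value of any earlier library, 31.8. BG_3B had 47 reads per 1000 of BG_3C in October and 2.44 in December, then 3.31 to 3.78 through January and February and 7.91 in March. Its 3 February libraries gave 3.24, 3.37 and 3.38, a narrow range although their levels differed by 2.02-fold for BG_3B and 2.10-fold for BG_3C. BG_1A had 324 reads per 1000 of BG_3B in October, 222 in December, from 6 reads against 27, and 1355 in February. It thus gained on BG_3B up to February, and in March the value was back at 602.

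Likeness of profiles was measured as Pearson's r of log2 CPM over the 18 libraries, which share library and date effects. Each gene was ranked against the other 26,247 tested genes. Because the block genes were chosen with their profiles over these libraries known, the ranks and percentiles describe them and test nothing. BG_1A and BG_3B, which stand at the ends of the block, were alike at r = 0.97. BG_1A ranked 1 among all genes for BG_3B, and BG_3B ranked 2 for BG_1A. After the mean of each date was subtracted, r was still 0.80, where the 99th percentile over all genes was 0.66 for BG_3B. BG_3E was less like them, at r = 0.85 with BG_1A and 0.82 with BG_3B. The 99th percentile over all genes was 0.84 for BG_3E, 0.86 for BG_1A and 0.83 for BG_3B. BG_3C was the least like the others, with r of 0.74, 0.63 and 0.62 to BG_1A, BG_3B and BG_3E, below the 99th percentile of 0.85 over all genes for BG_3C.

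Of the study's candidate genes for transport, those closest to BG_3C were GH17_22 at r = 0.94, a member of the GH17 glucan hydrolase family, CELLULOSE SYNTHASE-like E1_4 at 0.93 and the glucosidase GBA2_6 at 0.90. For BG_1A they were CELLULOSE SYNTHASE 6_2 at 0.93, named for the enzyme that spins cellulose into the wall, beta glucosidase 2_8 at 0.92 and GH-31_5 at 0.88. For BG_3B they were beta glucosidase 2_8 at 0.92, CELLULOSE SYNTHASE 6_2 at 0.92 and beta glucosidase 36_18 at 0.91. CELLULOSE SYNTHASE 6_2 and beta glucosidase 2_8 were thus among the closest candidates of both BG_1A and BG_3B, whose own profiles were alike. CELLULOSE SYNTHASE 6_2 had 0 reads in all 3 December libraries and a mean of 1.96 ± 1.18 CPM in February. BG_3E had other company, with GH-like_1 at r = 0.91, PECTIN_INHIB_like_11 at 0.91, named for an inhibitor of pectin-modifying enzymes, and BG_3A at 0.89. GH-like_1 reached its highest mean in March, 13 ± 2.79 CPM (SD, n = 3), and PECTIN_INHIB_like_11 was at 75.6 ± 36.4 CPM in February and 53.5 ± 19.6 CPM in March.

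Among all other genes, PAV01g0071141 had the highest r to BG_1A (0.97) and, after BG_1A itself, to BG_3B (0.95). Its mean was 3.95 ± 1.75 CPM in December, 114 ± 51.1 CPM in February and 16.7 ± 4.70 CPM in March (SD, n = 3 each). PAV04g0187641 was closest to BG_3E at 0.98. The gene closest to BG_3C, at r = 0.99, lies on an unplaced contig and is not named in the files, and it rose from 9.86 ± 0.935 CPM in October to 144 ± 50.7 CPM in February and fell to 29.1 ± 3.77 CPM in March (SD, n = 3 each).

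On January 15 and February 12, the 3 libraries of a date differed more for each of the 4 genes than for 75.7% of tested genes or more. The matching share was 81.7% or more on January 3 and 71% or more on December 8. These shares were taken over all tested genes, without matching for read count. Values that rest on few reads, such as those of BG_1A and BG_3E on December 8, can differ more through counting error alone. BG_3E had a higher SD of log2 CPM than 96.7% of tested genes on January 15 and on February 12, and its highest library stood 3.72-fold and 3.78-fold above its lowest on these dates. For BG_3C on January 15 the ratio was 3.27-fold, and the SD was above that of 94.7% of genes. Replicate 2 was the highest library for all 4 genes on December 8, January 15 and February 12, and the lowest for all 4 on January 3. Replicate 2 of January 15 was the most deeply counted library, and replicate 2 of February 12 was among the 3 with the lowest share of mapped reads in the study's own sequencing table. So were replicate 2 of January 3, where the 4 genes were lowest, and replicate 1 of December 8. Replicate 2 of January 15 and replicate 2 of February 12 were then left out together. The log2 fold changes of February against December were then 5.91 for BG_1A, 8.06 for BG_3E, 2.82 for BG_3C and 3.26 for BG_3B. On March 12 the spread was smaller, with libraries within 1.20-fold for BG_3B, 1.33-fold for BG_3C, 1.44-fold for BG_1A and 1.67-fold for BG_3E. The SD of BG_3E was then still above that of 79.7% of genes.

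**Figure D3:**
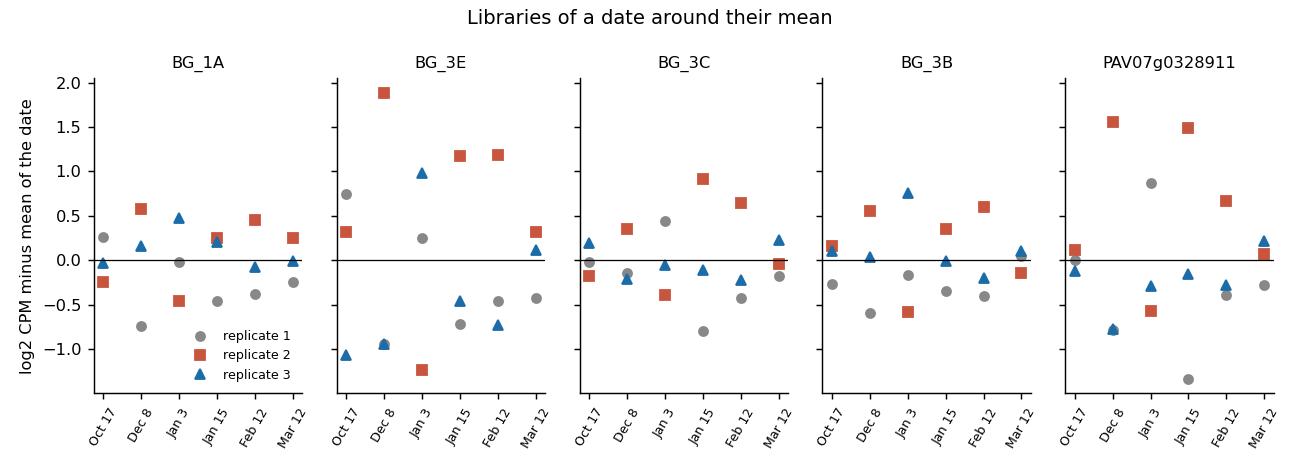
Log2 CPM of each library minus the mean of its date, for the 4 block genes and PAV07g0328911, with 1 symbol per replicate. The square of replicate 2 is the uppermost point of every panel on December 8, January 15 and February 12, by 1.18 and 1.19 for BG_3E on the last pair of dates, and the lowest of every panel on January 3.

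Between BG_1A and BG_3B the gene order by identifier holds 13 further gene rows, which give the local background. Most were silent in these buds. In all, 6 rows had 0 reads in all 18 libraries, PAV07g0328891 had 1 read, PAV07g0328971 had 2, and BG_3D (PAV07g0328951), a β-1,3-glucanase gene between BG_3E and BG_3C, had 8 reads spread over 7 libraries. The 4 rows with enough reads for a test were PAV07g0328841, PAV07g0328851, PAV07g0328911 and PAV07g0328981, none of which carries a name in the candidate table. How the counting shared out reads between near-identical copies is not given in the sources used here, so that values of BG_3A, BG_3B, BG_3C, BG_3D and BG_3E could be affected by reads common to them.

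**Figure D4:**
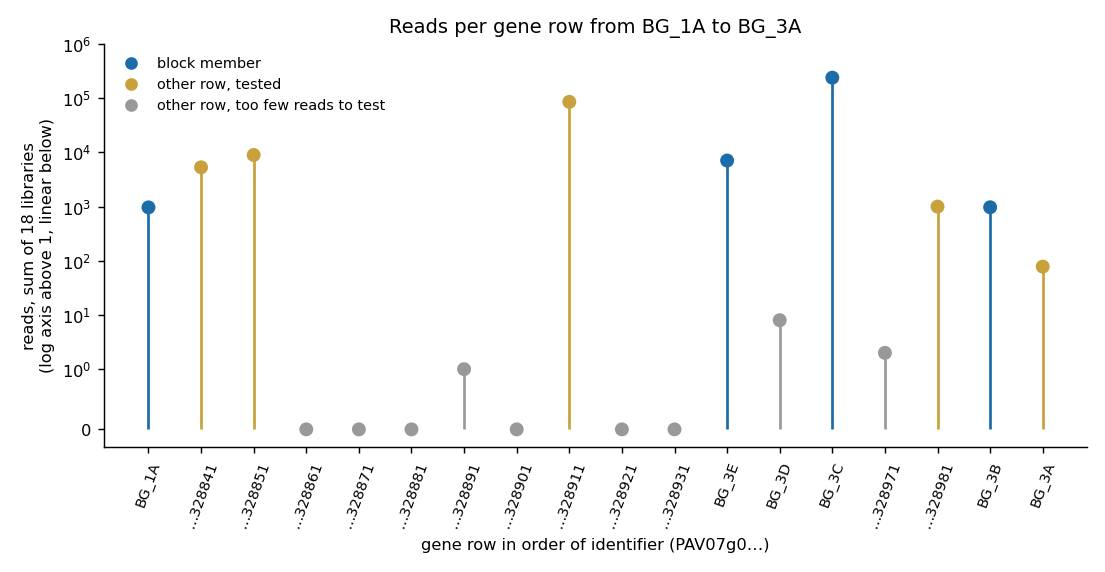
Reads summed over 18 libraries for each gene row in identifier order from BG_1A to BG_3A, on an axis that is logarithmic above 1 and linear below. BG_3C with 239,008 reads and PAV07g0328911 with 85,512 stand among 6 rows at 0.

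PAV07g0328911 shared the winter course of BG_3E. Its libraries held 9.48, 10.3 and 8.73 CPM in October, 1.77, 9.30 and 1.79 CPM in December and 111, 40.9 and 49.7 CPM on January 3. They reached 195, 1382 and 441 CPM on January 15 and 614, 1284 and 664 CPM on February 12, and remained at 330, 422 and 465 CPM on March 12. In edgeR's quasi-likelihood test with Benjamini-Hochberg adjustment over all genes, it rose by 4.04 on the log2 scale from December 8 to January 3 (SE 0.72, adjusted p = 2.82e-04) and by 3.32 to January 15 (SE 0.58, adjusted p = 4.42e-04), with no overlap of libraries in either step. February stood 7.70 above December (SE 0.76, adjusted p = 3.87e-07) and March 5.41 above October (SE 0.67, adjusted p = 2.32e-06). The step from February to March was -1.07 (SE 0.53, adjusted p = 0.0949), which did not pass, although it did without either of 2 libraries of January 15. For BG_3E, PAV07g0328911 ranked 2 of all genes with r = 0.97, and within dates the r was 0.80. Within dates its r to BG_3C was 0.88, rank 124 of all genes. The 99th percentile within dates was 0.85 for BG_3C and 0.705 for BG_3E. Per 1000 reads of BG_3C, it had 303 reads in February and 1304 in March.

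The other tested neighbours moved less. PAV07g0328841, next to BG_1A, rose from 12.3 ± 0.845 CPM in December to 42.8 ± 17.6 CPM in February (log2 fold change 1.79, SE 0.23, edgeR adjusted p = 6.88e-06) and fell by 1.80 to March (SE 0.23, adjusted p = 3.47e-06), with no overlap in either comparison. PAV07g0328851 fell by 1.05 from February to March (SE 0.14, edgeR adjusted p = 3.42e-06), and its date means ranged between 25 and 52 CPM. That call was lost at -0.85 without replicate 2 of February 12 and at -0.99 without replicate 2 or replicate 3 of March 12. It was also lost, at -0.86, without the 3 libraries of lowest mapping share. PAV07g0328981, next to BG_3B, was not called in any of the 8 comparisons given here, out of the 15 pairs of dates fitted. Among these 8, its largest change was -0.98 from October to March (SE 0.25, edgeR adjusted p = 0.00315). That change lies at the fold threshold. It was called with no filter, at -1.01, with upper quartile scaling, at -1.02, and without some single libraries, such as replicate 2 of October 17, at -1.07. Of the 4 tested neighbours, then, 1 was called from December 8 to January 3, 1 from January 3 to January 15, 2 from December to February and 2 from February to March, beside 10.4%, 4.4%, 17.7% and 24.4% of all genes.

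BG_3A (PAV07g0329001), the β-1,3-glucanase gene that follows BG_3B in identifier order, was barely detected but had its reads in the same months. It had 0 reads in all December libraries, 4, 18 and 5 reads on January 15, 15, 17 and 5 reads on February 12 and 4, 4 and 3 reads on March 12. February was at least 12.1-fold higher than December against a floor of 3 reads over the December libraries (edgeR adjusted p = 2.22e-04). Of its 78 reads over the 18 libraries, 37 came from February 12 and 27 from January 15. Without the reads of either date it would not have passed the filter on low counts. The p of its comparisons with February or with January 15 therefore gives no support to a difference. The step from January 3 to January 15 was called (log2 fold change 3.20, SE 0.88, edgeR adjusted p = 0.0139). That call was lost without replicate 2 of January 3 (edgeR adjusted p = 0.0539) or replicate 2 of January 15 (edgeR adjusted p = 0.0902), and DESeq2 gave no adjusted p for it. The fall to March was also called (-1.58, SE 0.61, edgeR adjusted p = 0.0379), a call that was lost with the DESeq2 test and without any 1 of 5 libraries of the 2 dates. The remaining BG genes of the candidate table were close to silent and none was tested. BG_5D had 26 reads in all, BG_5E 7, BG_5C 4 and BG_5A 3, and BG_3F, BG_5B and BG-like had 0.

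Other genes of callose metabolism were counted in lists that the study drew up by annotation. In the GH17 family, 33 of 42 genes were tested with the block genes left out. From December to February 5 were called higher and 2 lower, beside 12.5% and 5.27% of all genes, with a median log2 fold change of -0.16 beside 0.00 over all genes. From February to March 15 were called higher and 1 lower, with a median of 0.96 beside 0.00 over all genes, of which 14.7% were called higher and 9.66% lower. The highest mean lay in March for 21 of the 33 genes and in February for 4, whereas over all genes 27.8% peaked in March and 17.5% in February. All 4 block genes had their highest mean in February.

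**Figure D5:**
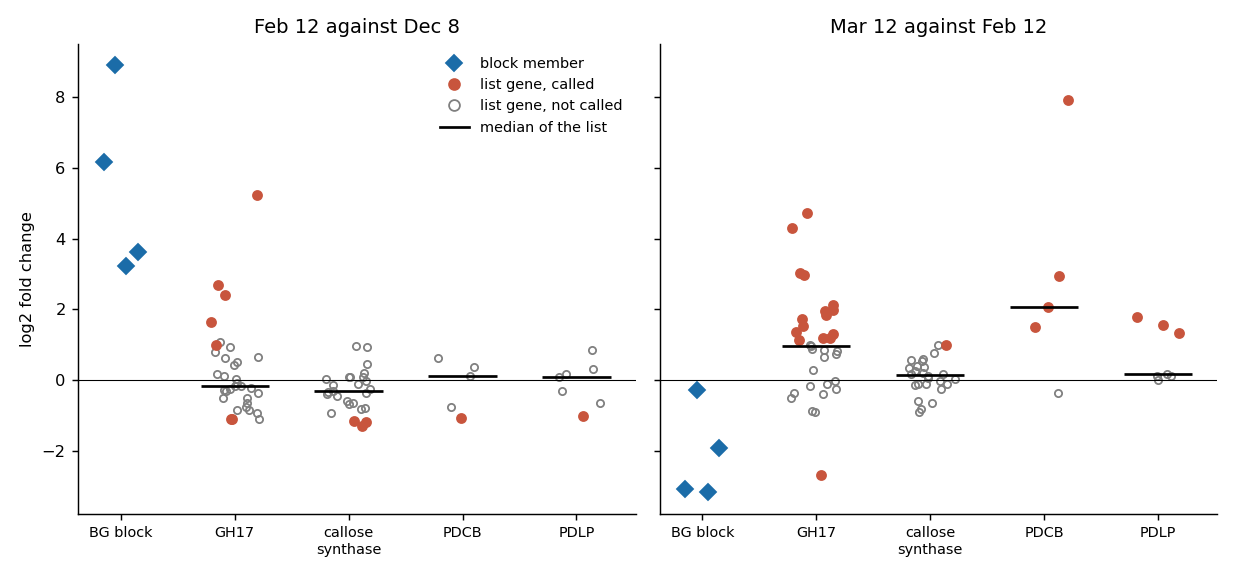
Log2 fold change of February 12 against December 8 and of March 12 against February 12 for the 4 block genes and for the tested genes of the GH17, callose synthase, PDCB and PDLP lists, where 1 point is 1 gene, filled red where called, and the bar is the median of the list. In the right panel the GH17 median is 0.96 with 15 genes called higher, while the block genes lie between -3.18 and -0.30, and the filled GH17 point at -2.68 is GH17_22.

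GH17_22 was the 1 GH17 gene called lower in March than in February. With the adjusted p alone, 5 GH17 genes were lower in that step, among them GH17_29 at -0.92 and GH17_17 at -0.88, short of the fold threshold. The mean level of GH17_22 was 15.6 ± 6.65 CPM in October and 32.7 ± 8.76 CPM in December. It then reached 285 ± 78.8 CPM by January 3, 680 ± 315 CPM by January 15 and 1223 ± 471 CPM by February 12, and dropped to 190 ± 31.5 CPM (SD, n = 3 each). February stood 5.22 above December (SE 0.39, edgeR adjusted p = 1.7e-08) and March was 2.68 lower than February (log2 fold change -2.68, SE 0.34, adjusted p = 3.06e-06). It was the only tested GH17 gene that was called both higher from December to February and lower from February to March.

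From January 15 to February 12, 6 of the 33 tested GH17 genes were called higher, 1 was called lower and 26 were not called. Over all genes 7.1% were called higher and 3.9% lower, and the median of the GH17 list was 0.07. The largest called rises were those of GH17_34 by 2.54 (SE 0.25, edgeR adjusted p = 6.78e-07), GH17_4 by 2.42 (SE 0.59, adjusted p = 0.00338) and GH17_25 by 2.29 (SE 0.21, adjusted p = 3e-07). GH17_10 was the 1 GH17 gene called lower in that step, at -1.10 (SE 0.13, adjusted p = 3.13e-06), and its change was -0.97, short of the fold threshold, without replicate 2 of February 12. From February to March, GH17_9 rose by 4.72 (SE 0.39, adjusted p = 1.33e-08), from 0.526 ± 0.130 to 14.1 ± 6.79 CPM, and GH-17-like_2 rose by 4.30 (SE 0.40, adjusted p = 5.22e-08). GH17_11 rose by 3.02 in the same step (SE 0.60, adjusted p = 3.49e-04). The smallest called rises belonged to GH17_5, at 1.13 (SE 0.15, adjusted p = 4.36e-06), and GH17_3, at 1.18 (SE 0.10, adjusted p = 2.72e-08). That of GH17_5 was 0.99, short of the fold threshold, without replicate 1 of February 12.

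Few callose synthase genes, whose products make callose, were called. Of 31 listed genes 26 were tested, 14 of them with their highest mean on January 3, the peak date of 19.8% of all genes. In edgeR's test of February against December 0 were called higher and 3 lower, beside 12.5% and 5.27% of all genes, with a median of -0.32. CALS_1B fell by 1.02 from January 15 to February 12 (SE 0.38, edgeR adjusted p = 0.0388), a call that was lost without any 1 of 5 libraries of the 2 dates. GSL_3 was the 1 gene called higher in March than in February, at 1.00 (SE 0.26, adjusted p = 0.00278), at the fold threshold and no longer called under any of the 3 other normalizations and tests. Of the PDCB genes, for proteins that bind callose at plasmodesmata, 4 of 5 tested were called higher in March than in February, and of the PDLP genes, for proteins located at plasmodesmata, 3 of 7, beside 14.7% of all genes, and both lists had 0 called lower. Their medians were 2.06 and 0.18.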

How the data were processed

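Stranded mRNA-seq libraries of 'Fertard' flower buds (6 dates, 3 replicates each) were analysed from the deposited counts per gene. The count values are raw reads: the authors trimmed reads with Trimmomatic 0.36, aligned them with STAR to the 'Regina' genome v.1 and counted them with HTSeq, whose versions, overlap mode and strand setting are not given in the sources used here. Dates were taken from the labels, except December, for which the design text was used. Gene names and lists came from the study's candidate table (579 entries, all matched to a count row).

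Counts were fitted with edgeR 4.0.16 in R 4.3.3 (TMM, 1 mean per date, quasi-likelihood test, 12 residual degrees of freedom) for genes whose count averaged 3 or more and was 0 in no more than 75% of libraries. Adjustment was over all 26,248 genes, and a gene was called where the adjusted p was below 0.05 and the log2 fold change exceeded 1 in size. The standard error is the log2 fold change divided by the root of F. The fit was tested on simulated data. DESeq2 1.42.0, 2 other normalizations, other filters, the replicate block and left-out libraries were tried. No pair of replicates agreed within sampling noise (chi-square over degrees of freedom, 1.89 to 23.9). Likeness used log2 CPM with a prior count of 1.

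Genes, lists and the rule for names were chosen with earlier results of these data known. Named were the 4 block genes, all rows between them, other BG genes with a count, the 3 largest and 3 smallest called changes of the GH17 and callose synthase lists in the last 2 steps, GH17_22, the 3 candidates closest to each block gene and the 1 closest other gene. Gene lengths and coordinates of this build were not used here, and none of the identifiers matched the RefSeq table given. Bud markers were not checked, since the files pair no such names with identifiers.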

Additional observations from a re-analysis of the deposited data

How the results depend on the processing

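Of the 832 values that the alternatives gave for the fold changes of the 4 block genes, 829 moved by less than the spread between replicates, 0 changed the sign of a called change and 3 moved by more, all for BG_3E without replicate 2 of December 8, where its December reads were all 0 and the fitted value is no bound. With single libraries left out, BG_3E ranged from -6.56 to -1.86 for December against October, from 3.53 to 8.23 for January 3 against December 8 and from 8.06 to 12.9 for February against December. With the adjusted p alone, all-gene counts grew to 11307 for December against October, 9816 for January 3 against December 8, 6674 for January 15 against January 3, 10504 for February 12 against January 15, 14593 for March against February, 12076 for February against December, 13271 for February against October, 14030 for March against October and 24409 for any of the 15 pairs, from 3972, 2726, 1155, 2887, 6402, 4658, 5351, 5486 and 14249. Called block neighbours then numbered 1, 3, 3, 4 and 2 for December against October, January 3 against December 8, February 12 against January 15, February against December and March against October, from 0, 1, 0, 2 and 1. For February against December, GH17 then had 9 higher and 8 lower and callose synthase 2 higher and 10 lower, and for March against February GH17 had 5 lower, callose synthase 4 higher and 4 lower, and PDCB 1 lower.

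The callose synthase gene called higher in March was not called (0 genes) with DESeq2 size factors, upper quartile scaling, the DESeq2 test, either other filter or the replicate block. A mean count of at least 10 left 3 GH17 genes higher for February against December. Neighbours called for March against October were 2 with no filter and with upper quartile scaling. Without the 3 libraries of lowest mapping share, neighbours numbered 2 for January 3 against December 8 and 1 for March against February, GH17 had 2 lower in March and callose synthase 1 lower in February. Without replicate 2 of January 15 and of February 12, chosen after seeing the data, neighbours numbered 1 and GH17 2 lower for March against February, and GH17 1 lower for February against December. With single libraries left out, neighbours ranged from 0 to 1 for December against October, 1 to 2 for January 3 against December 8, 0 to 2 for February 12 against January 15, 1 to 3 for March against February and 1 to 2 for March against October. GH17 ranged from 1 to 4 lower for February against December and 1 to 2 lower for March against February, and callose synthase from 0 to 1 higher and 1 to 4 lower for February against December and 0 to 2 higher for March against February. Over date means, r was 0.99 for BG_1A with BG_3B and 0.99 for BG_3E with PAV07g0328911. The cause of these changes was not tested. Replicate numbers were not treated as pairs in the main fit. Of 45 same-numbered pairs 4 correlated above 0.1 (median 0.00, highest 0.37), beside 8 of 90 differently numbered pairs (median -0.01, highest 0.24). This check cannot exclude that a number stands for the same tree on each date. The replicate block left 6372 genes called for March against February, from 6402. Apart from that callose synthase gene it changed no count by over 1.5 times. Levels under about 1 CPM rest on few reads and limit BG_1A, BG_3B, BG_3A and the December values of BG_3E.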
